A study of Drosophila melanogaster with 9 samples.

Results

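The genes described here encode the core enzymes that make and break down ceramide in Drosophila melanogaster. They are 9 genes picked by symbol, by a rule with no threshold on measured values but with earlier results of these data known, from a deposited table of 16700 rows, and all 9 were found. For 8 of them expression was high enough to be tested, among 8365 genes tested in all, while Spt-I was listed at 0 in every library. Ceramide synthesis starts when serine palmitoyltransferase, a complex of lace and Spt-I, joins serine to a fatty acyl chain. The ceramide synthase schlank then attaches a further fatty acid and the desaturase ifc turns dihydroceramide into ceramide. Ceramidases (CDase, and bwa by homology) release sphingosine from ceramide, the sphingosine kinases Sk1 and Sk2 phosphorylate it to sphingosine 1-phosphate (S1P), and the lyase Sply cleaves S1P, which is the exit from the pathway. Excess ceramide is known as a lipotoxic product that impairs heart function in flies and mammals fed or bred towards obesity.

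RNA came from dissected whole hearts of adult mated females of the w1118 strain, taken at 10 days by the paper and the sample titles. Each library was a pool of 15 hearts by the sample labels. ND females spent 10 days on normal diet, a food of agar, yeast and cornmeal. HSD females spent 10 days on the same food with 30% sucrose, and HFD females had 7 days of ND followed by 3 days of the food with 30% coconut oil, so that content and duration of the rich diets cannot be told apart in HSD versus HFD. Each diet had 3 libraries, named A, B and C, with 59941761 to 90069216 reads counted on genes. The HFD libraries, at 59941761 to 71825893 reads, were all shallower than the ND libraries, at 75653834 to 79296601. HSD library A was the deepest. Across genes Pearson's r between libraries of 1 diet was 0.98 to 0.994. Levels are given as RPKM, read counts divided by exon length and by the library's total of counted reads, scaled between libraries by factors of 0.938 to 1.084 (scaled RPKM). Values after ± are SD over the 3 libraries of a diet. Differences are given as log2FC, the difference of mean log2(scaled RPKM + 0.5), with its standard error, which understates the change of low genes. Differential expression was called where limma gave an adjusted p (Benjamini-Hochberg) under 0.05 together with a difference of 1.5-fold or more. With 3 libraries against 3, the smallest p of the two-sided exact permutation test is 0.1, and it was 0.1 wherever the libraries of the diets compared did not overlap.

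In ND hearts the 8 detected genes differed widely in level, with the lyase at the top and a ceramidase and a kinase at the bottom. Sply stood highest at 68.7 ± 6.83 scaled RPKM, above 88.1% of all genes tested. Below it came ifc (38.3 ± 1.95), schlank (25.0 ± 1.35), lace (19.2 ± 0.562), bwa (18.8 ± 3.35) and Sk2 (11.5 ± 0.385). CDase, at 2.62 ± 0.184 scaled RPKM, and Sk1, at 1.57 ± 0.289, were the lowest, above 20.0% and 12.7% of the genes tested. The ND libraries of lace and bwa overlapped, so these genes did not differ beyond their spread, and the ND libraries of every other pair of neighbours in this order were separate. Among the enzymes with a partner of like function, bwa was thus the more abundant ceramidase gene and Sk2 the more abundant kinase gene on every diet.

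**Figure D1:**
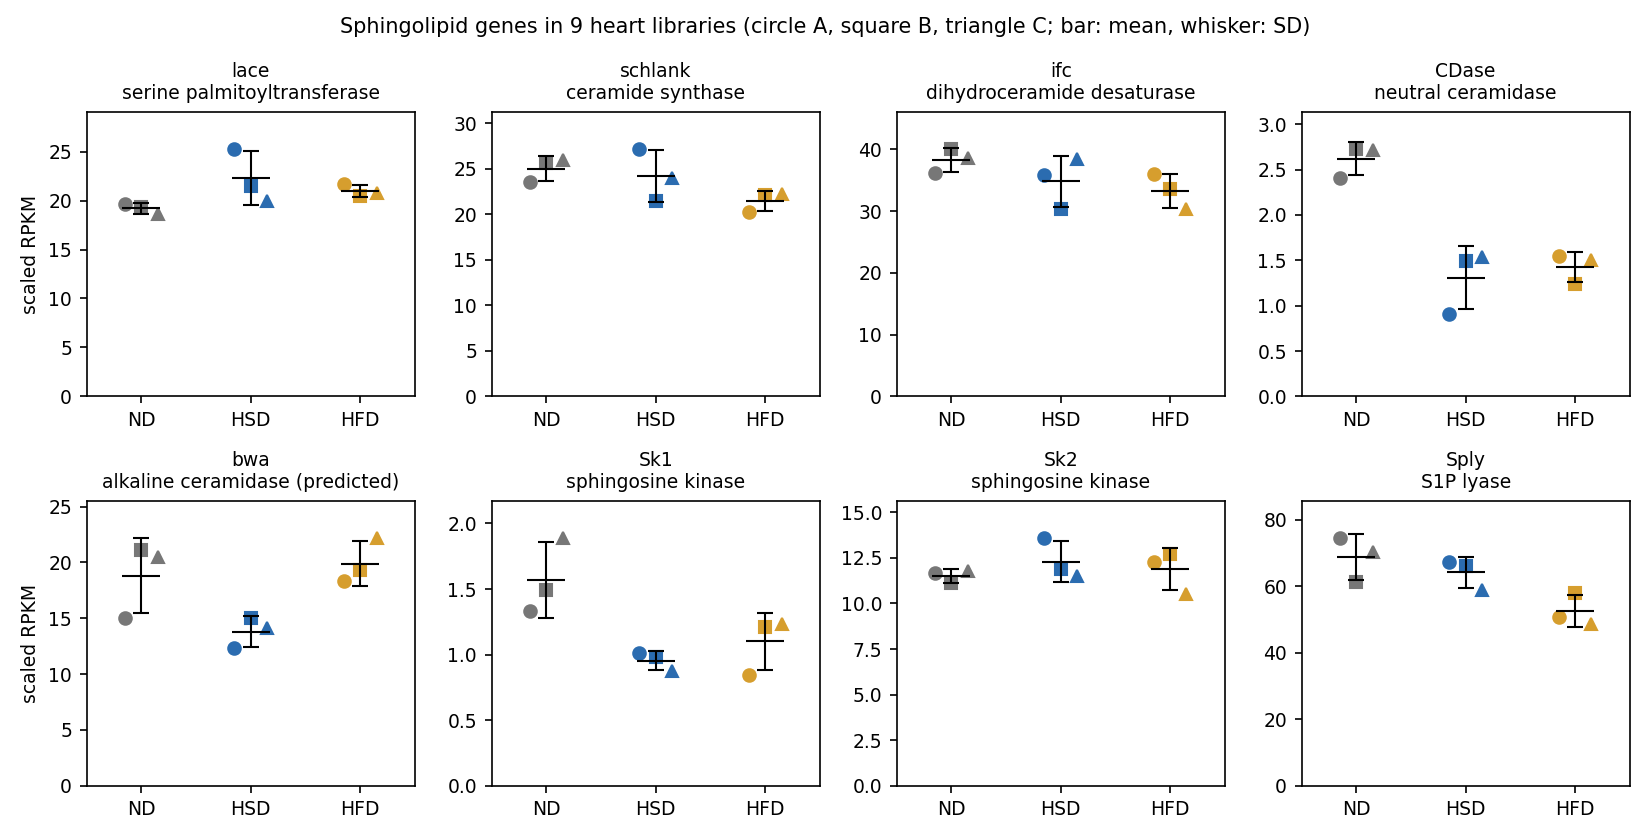
Scaled RPKM (vertical axis, from 0, a scale of its own for each gene) of the 8 detected genes in each library of ND, HSD and HFD. Symbols stand for libraries A, B and C, the horizontal bar for the mean and the whisker for the SD of 3 libraries. For CDase the 3 ND libraries, at 2.41 to 2.73, lie above all 6 libraries of the rich diets, at 0.911 to 1.55.

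The change that passed the test on the rich diets was a lower transcript level of CDase, the neutral ceramidase (FBgn0039774, 3R:30459521-30465736, forward strand, BDGP6). Its level in libraries A, B and C of ND was 2.41, 2.73 and 2.72 scaled RPKM. The HSD libraries had 0.911, 1.49 and 1.54, and those of HFD 1.55, 1.24 and 1.5. All 6 rich diet libraries lay below all 3 ND libraries, and HSD library A was the lowest of the 9. CDase fell on HSD with a log2FC of -0.80 ± 0.15 (SE, 95% interval -1.14 to -0.46, adjusted p = 0.018) and on HFD with a log2FC of -0.69 ± 0.15 (SE, 95% interval -1.03 to -0.36, adjusted p = 0.047). HSD and HFD share the ND libraries, so these are not independent results. Between HSD and HFD the log2FC was -0.10, with an interval of -0.44 to 0.23 and an adjusted p of 0.70. Although its RPKM is low, CDase rested on 515, 616 and 603 reads in ND, 237, 334 and 323 for HSD and 288, 234 and 345 for HFD, counting both mates of a pair.

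The HSD call of CDase was kept in 6 of 9 fits that left out a library. It was lost without ND library A (adjusted p = 0.055), without ND library C (0.078) and without HSD library B (0.053), with log2FC of -0.85, -0.78 and -0.87. The log2FC was -0.63 without HSD library A, the lowest, and the call was kept there. The HFD call was close to the threshold. It was kept only without HSD library A (adjusted p = 0.013), and in the other 8 fits that left out a library the adjusted p was 0.052 to 0.16, with log2FC of -0.75 to -0.62.

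The 3 genes whose log2 values were most like those of CDase over the 9 libraries, out of 7044 genes that averaged 2 RPKM or more, were LManI (Pearson's r = 0.988), NimB5 (0.965) and NimC2 (0.961). LManI encodes a lysosomal alpha-mannosidase, and NimB5 and NimC2 belong to the Nimrod family. LManI was at 35.5, 37.9 and 37.1 scaled RPKM in ND, 22.3, 26.9 and 28.6 on HSD and 27.7, 27.2 and 27.6 on HFD. NimC2 was at 54.0, 64.2 and 59.2 in ND, 25.5, 39.6 and 41.7 on HSD and 32.9, 28.2 and 31.7 on HFD. For both, as for CDase, HSD library A was the lowest of the 9 and the ND libraries were the 3 highest. Since these genes were picked by likeness to CDase over the same libraries, this shared order is no separate result. These correlations describe 9 libraries in 3 diets, which differ in depth and share the diets, and carry no test.

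**Figure D2:**
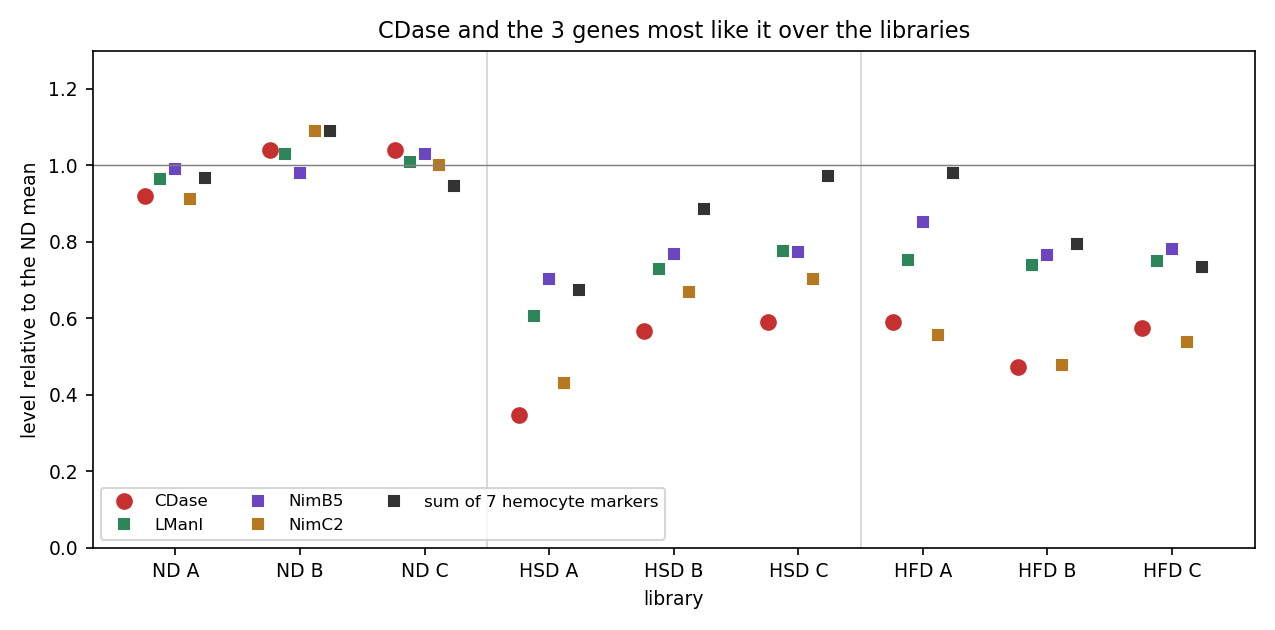
Level relative to the mean of the 3 ND libraries (vertical axis, a ratio of scaled RPKM) of CDase, of the 3 genes most like it and of the sum of 7 hemocyte markers, in each of the 9 libraries (horizontal axis). CDase lies at 0.348 to 0.591 in the 6 rich diet libraries, where the hemocyte sum lies at 0.674 to 0.98. Ppn is the largest part of that sum.

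Whole hearts are dissected with cells that cling to them, and markers of these cells were examined beside the results. All 8 heart markers, Hand and tin among them, were detected. The 7 hemocyte (blood cell) markers had a log2FC below 0 on both rich diets, with 0 called. Their medians were -0.25 on HSD and -0.34 on HFD. Their summed level was 1650 to 1890 scaled RPKM in ND, 1180 to 1690 on HSD and 1280 to 1710 on HFD. None of the 7 was at 0. Ppn was the largest part of that sum, with means of 781 in ND, 648 on HSD and 667 on HFD. The 6 tested of 7 fat body markers were also below 0 on both diets, with 1 called on each. The summed level of the list was 1990 to 2740 in ND against 1470 to 1670 on HSD and 1190 to 1470 on HFD. The fall was widest in Lsp2, with means of 541 in ND, 51.3 on HSD and 10.8 on HFD. Apoltp, by comparison, had means of 90.2, 79.8 and 80.7. For the 7 markers of pericardial nephrocytes, which flank the heart tube, the sums were 289 to 391, 181 to 307 and 256 to 353, and the 6 tested were all below 0 on HSD (median log2FC -0.31) with 0 called. The 5 oenocyte markers summed to 36700 to 50500 in ND, 52600 to 63100 on HSD, all above ND, and 46300 to 57500 on HFD. Most of that sum was Cyp4g1, with means of 39100 in ND, 54000 on HSD and 48100 on HFD. Of the 5 oenocyte markers 0 had a log2FC below 0 on HSD (median 0.08), with 0 called. On HFD 3 of the 5 were below 0 (median -0.28), with 1 called lower. Eggshell and germline markers summed to 43.7 to 941 in ND, 2.84 to 79.6 on HSD and 3.76 to 16.7 on HFD. Of the 8 tested of 10, 8 were below 0 on HSD with 0 called, and 7 on HFD with 1 called. In ND most of the sum was from eggshell genes such as Vm26Aa, with means of 158 in ND, 2.67 on HSD and 2.2 on HFD. The germline markers bam, osk and vas had lower means on HSD than in ND but higher means on HFD. For osk these were 1.63 in ND, 0.435 on HSD and 3.59 on HFD, with single libraries at 0.107 to 10.1. The part of these cells in the level of CDase, or of any gene below, was not tested. In such bulk libraries, fewer cells of a type and less RNA per cell cannot be told apart.

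CDase was the 1 gene called of the 8 on HSD, where 3.30% of all genes tested were called, and the 1 gene called on HFD, where 1.91% were. On HSD 6 of the 8 genes had a log2FC below 0, with a median of -0.12 against 0.00 over all genes. On HFD 5 of 8 were below 0, with a median of -0.21 against 0.02. The libraries did not overlap with ND for 3 of the 8 genes on HSD (29.2% of all genes tested) and for 6 of 8 on HFD (23.3%), 5 of these 6 lying below ND.

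**Figure D3:**
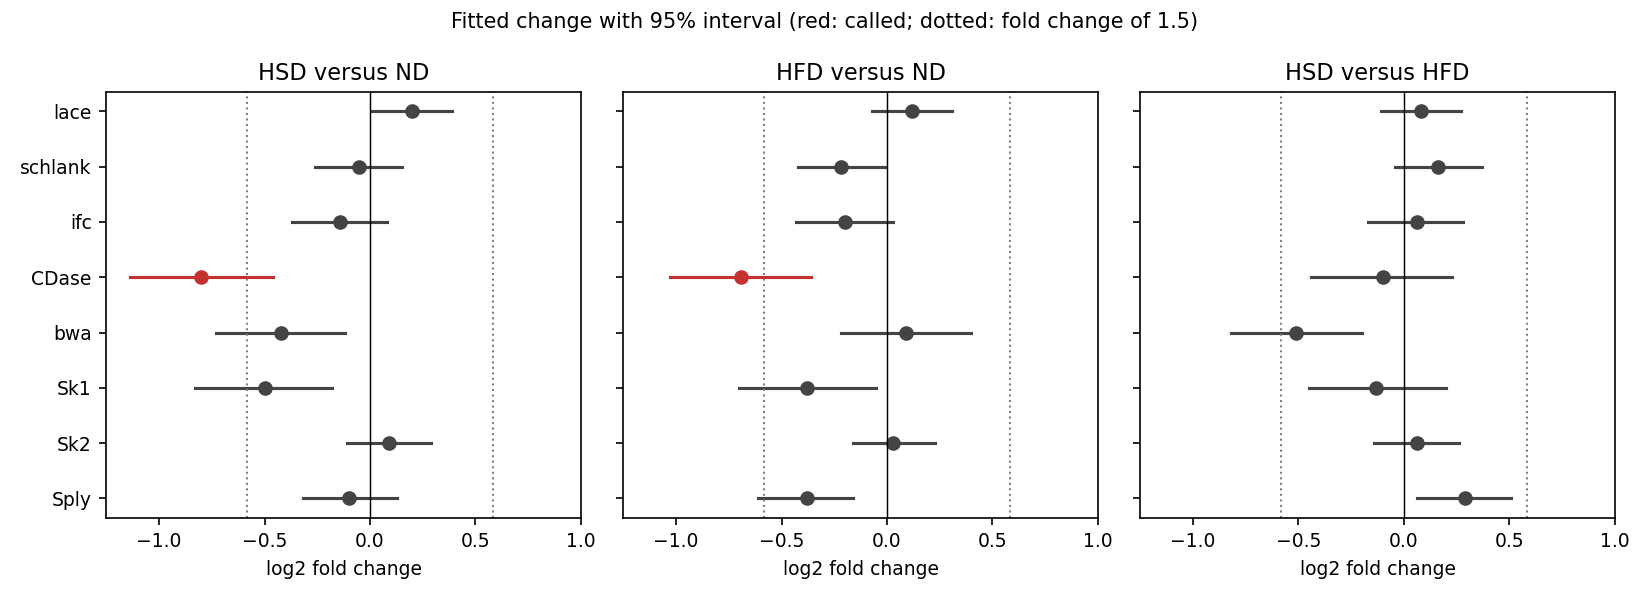
log2FC (horizontal axis) of the 8 tested genes in the 3 comparisons, with the 95% interval of the fit as a line, called genes in red and a fold change of 1.5 as dotted lines. CDase is past the dotted line in both comparisons with ND, and bwa and Sply have intervals on opposite sides of 0 in HSD versus HFD.

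The genes of ceramide synthesis stayed within narrow limits, and none of them was called. lace (FBgn0002524, 2L:15499127-15505018, forward strand) encodes the catalytic subunit of serine palmitoyltransferase, the entry enzyme of the pathway. It was at 19.7, 19.3 and 18.6 scaled RPKM in ND, 25.3, 21.5 and 20.0 on HSD and 21.7, 20.5 and 20.8 on HFD. Every library of the rich diets lay above every ND library, with HSD library A farthest above them. The log2FC was 0.20 ± 0.08 (SE, adjusted p = 0.22) on HSD and 0.12 ± 0.08 (SE, adjusted p = 0.49) on HFD.

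schlank (FBgn0040918, X:6257668-6267228, reverse strand), the ceramide synthase, was at 23.5, 25.6 and 26.0 scaled RPKM in ND, 27.2, 21.4 and 24.0 on HSD and 20.2, 22.1 and 22.2 on HFD. On HSD the libraries lay on either side of ND, while the HFD libraries all lay below it. Its log2FC was -0.05 (95% interval -0.26 to 0.15, adjusted p = 0.82) on HSD and -0.22 ± 0.09 (SE, adjusted p = 0.25) on HFD. ifc (FBgn0001941, 2L:5986348-5988854, forward strand), the dihydroceramide desaturase, was at 36.2, 40.1 and 38.6 in ND, 35.8, 30.3 and 38.5 on HSD and 36.0, 33.5 and 30.4 on HFD. As for schlank, the HFD libraries lay below ND and the HSD libraries overlapped with it, and the log2FC was -0.14 (adjusted p = 0.49) on HSD and -0.20 (adjusted p = 0.33) on HFD. The values of lace and schlank come from stretches of the table whose gene labels are out of register with the values, by 4 and 2 rows, and were realigned. In the stretch that holds lace 94.1% of 17 rows were whole reads once realigned and 0% as listed, and for schlank 96.2% of 209 rows did so against 0.5%. Taken as listed, the direction of lace turned on both diets and that of schlank on HFD.

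Spt-I (FBgn0086532, 2R:13168498-13170744, forward strand), which encodes the other subunit of serine palmitoyltransferase, was listed at 0 in all 9 libraries. In the annotation 99.5% of its exon bases are shared with the antisense gene asRNA:CR45142 on the other strand, itself listed at no more than 0.075 RPKM. Genes that every cell uses, such as the proteasome subunit gene Prosa1 and the respiratory chain gene ND-MNLL, were also listed at 0. ND-MNLL shares 100% of its exon bases with another gene, but Prosa1 only 1.8%. Of 430 protein-coding genes that share at least 95% of their exon bases with another gene, 80.0% were listed at 0, against 10.6% of 10915 genes that share under 5%. How reads over such overlaps were counted is not given in the sources used here, so a level of Spt-I cannot be stated.

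The second ceramidase gene, bwa (FBgn0045064, 2L:20066391-20073719, forward strand), a homologue of the alkaline ceramidases, separated the rich diets from each other. It was at 15.0, 21.1 and 20.5 scaled RPKM in ND, 12.3, 15.0 and 14.1 on HSD and 18.3, 19.3 and 22.2 on HFD. All HSD libraries lay below all HFD libraries, while ND library A was at the level of the highest HSD library and apart from ND libraries B and C. In HSD versus HFD the log2FC was -0.51 ± 0.14 (SE, 95% interval -0.82 to -0.20, adjusted p = 0.048), which is short of the fold change threshold. In that comparison 0 of the 8 genes were called, against 4.35% of all genes tested, and bwa was the 1 gene of the 8 with an adjusted p under 0.05, as 9.42% of all genes tested had. Over fits that left out a library its adjusted p was 0.018 to 0.12, and it was under 0.05 in 1 of them, without ND library A. Against ND, bwa had a log2FC of -0.42 ± 0.14 (SE, adjusted p = 0.11) on HSD and 0.09 (adjusted p = 0.78) on HFD. With the library letter as a block, the adjusted limma p of bwa on HSD was 0.034. It was 0.041 to 0.3 over fits that left out a library, lowest without ND library A (log2FC -0.58). In none of these fits did bwa reach the fold change threshold on HSD. Of its exon bases 11.4% overlap with the genes asRNA:CR44907 and pr on the other strand.

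Set beside each other, the ceramidase genes stood in other proportions in ND than on the rich diets. The ratio of bwa to CDase was 6.23, 7.73 and 7.53 in ND, 13.5, 10.1 and 9.11 on HSD and 11.8, 15.5 and 14.8 on HFD, in the order A, B, C. It was lowest in the 3 ND libraries, and the HSD and HFD libraries overlapped. The ratio was not tested. The summed level of both genes was 21.5 ± 3.54 scaled RPKM in ND, 15.1 ± 1.68 on HSD and 21.3 ± 2.06 on HFD, most of it from bwa.

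Of the sphingosine kinases, which make S1P, the less abundant gene had lower values on the rich diets and the more abundant one did not. Sk1 (FBgn0030300, X:11442539-11446012, forward strand) was at 1.33, 1.49 and 1.89 scaled RPKM in ND, 1.01, 0.982 and 0.871 on HSD and 0.845, 1.21 and 1.23 on HFD. All rich diet libraries lay below ND. Sk1 was not called, with a log2FC of -0.50 ± 0.14 (SE, adjusted p = 0.075) on HSD and -0.38 ± 0.14 (SE, adjusted p = 0.21) on HFD, and its values rested on 152 to 405 reads. Sk2 (FBgn0052484, 3L:3047087-3050159, forward strand) was at 11.7, 11.1 and 11.8 in ND, 13.6, 11.9 and 11.5 on HSD and 12.3, 12.7 and 10.5 on HFD. Its libraries overlapped in every comparison, and the 95% interval of its log2FC was -0.11 to 0.29 on HSD and -0.16 to 0.23 on HFD. As a percent of the summed level of both kinase genes, Sk1 made up 12.0 ± 1.83 in ND, 7.18 ± 0.385 on HSD and 8.54 ± 2.04 on HFD, whereas the sum itself was 13.1, 13.3 and 12.9 scaled RPKM.

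Sply (FBgn0010591, 2R:17088441-17091958, reverse strand), the S1P lyase and the most abundant of these transcripts, was at 74.5, 61.2 and 70.3 scaled RPKM in ND, 67.2, 66.2 and 58.8 on HSD and 50.8, 58.0 and 48.7 on HFD. Those 3 HFD libraries were the lowest of the 9, and HSD overlapped with ND. The log2FC was -0.38 ± 0.10 (SE, 95% interval -0.61 to -0.16, adjusted p = 0.080) on HFD, -0.10 (adjusted p = 0.67) on HSD and 0.29 ± 0.10 (SE, adjusted p = 0.11) in HSD versus HFD. None of these passed the threshold. In HSD versus HFD the libraries of bwa and Sply alone did not overlap, 2 of 8 genes against 29.9% of all genes tested.

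The wider pathway was described from a list of 29 further genes, of which 22 were tested, grouped by step. No gene of synthesis and transfer (6 tested), of glycosphingolipid synthesis (5) or of export and lipid phosphatases (3) was called in any comparison. The 8 tested genes listed for breakdown of complex sphingolipids are grouped by assigned role. Whether their products act on fly sphingolipids was not tested. All 8 had a log2FC below 0 on HSD, with 2 called and a median of -0.26. On HFD all 8 were below 0 as well, with 0 called and a median of -0.25, but only 6 of 8 with RPKM as deposited. Over all genes tested, 4140 of 8365 were below 0 on HSD and 3851 on HFD, with 3.30% and 1.91% called. On HSD the direction was the same for all 8 genes under each alternative that kept the labels realigned, and labels as listed, which would change Gba1b, were not run for this group. On HFD it also held for only 6 of 8 without HFD library C, and for 7 of 8 with quantile normalization or without ND library A or C. The remaining 7 listed genes were under the minimum level for testing, a4GT2 and b4GalNAcTB being listed at 0.

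The genes of this breakdown group with a call were Gal and CG3376. CG3376 (FBgn0034997, 2R:24258013-24265213, forward strand), the predicted acid sphingomyelinase, was at 82.4, 80.9 and 83.0 scaled RPKM in ND, 48.4, 50.0 and 52.6 on HSD and 94.3, 80.0 and 63.0 on HFD. Its HSD libraries were close together and below the other 6, while the HFD libraries were spread widely around ND. CG3376 fell on HSD relative to ND, with a log2FC of -0.70 ± 0.13 (SE, adjusted p = 0.016), and was lower on HSD than on HFD, with a log2FC of -0.63 ± 0.13 (SE, adjusted p = 0.017). On HFD its log2FC was -0.07 (adjusted p = 0.81). The call against ND was lost without ND library A, ND library C or HSD library B (adjusted p = 0.06, 0.069 and 0.073). The call against HFD was lost without HSD library B, HFD library A or HFD library B (log2FC of -0.62, -0.49 and -0.61).

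Gal (FBgn0001089, 2L:6003574-6006827, reverse strand), a beta-galactosidase gene, was at 12.1, 11.7 and 10.7 scaled RPKM in ND, 4.76, 7.72 and 7.82 on HSD and 6.91, 7.29 and 8.40 on HFD. All rich diet libraries lay below ND, with HSD library A the lowest. Gal fell on HSD with a log2FC of -0.75 ± 0.16 (SE, adjusted p = 0.031), and had a log2FC of -0.58 (adjusted p = 0.098) on HFD. The HSD call was kept in 4 of 9 fits that left out a library. It was lost without each ND library (adjusted p = 0.11, 0.07 and 0.091 without A, B and C), without HSD library B (0.066) and, by its log2FC of -0.54, without HSD library A. Of its exon bases 61.0% overlap with Tsp26A and asRNA:CR43866 on the other strand, so its level is uncertain.

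Of the genes with the largest log2FC that were not called, CG7997, a predicted alpha-galactosidase gene, was at 107, 65.3 and 77.3 scaled RPKM in ND, 50.5, 45.5 and 63.2 on HSD and 43.1, 60.3 and 58.2 on HFD. All rich diet libraries lay below ND, with a log2FC of -0.63 ± 0.20 (SE, adjusted p = 0.11) on HSD and -0.61 ± 0.20 (SE, adjusted p = 0.15) on HFD. The paper, which used DESeq2 and edgeR in place of limma, reports CG7997 as downregulated on both rich diets. spin, which encodes a lysosomal membrane transporter, was at 79.4, 73.7 and 76.3 in ND, 95.4, 115 and 107 on HSD and 73.8, 84.0 and 73.9 on HFD. Its HSD libraries lay above the other 6. The log2FC on HSD was 0.46 ± 0.09 (SE, adjusted p = 0.019), under the fold change threshold, and on HFD it was 0.01 (adjusted p = 0.95). Hexo2, a hexosaminidase gene named after its values were seen, was the 1 further pathway gene with an adjusted p under 0.05 on HFD. It was at 203, 208 and 201 scaled RPKM in ND, 149, 153 and 182 on HSD and 156, 155 and 136 on HFD. Every rich diet library lay below ND. The log2FC on HFD was -0.46 ± 0.09 (SE, adjusted p = 0.041, and 0.028 to 0.14 when a library was left out), under the fold change threshold.

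**Figure D4:**
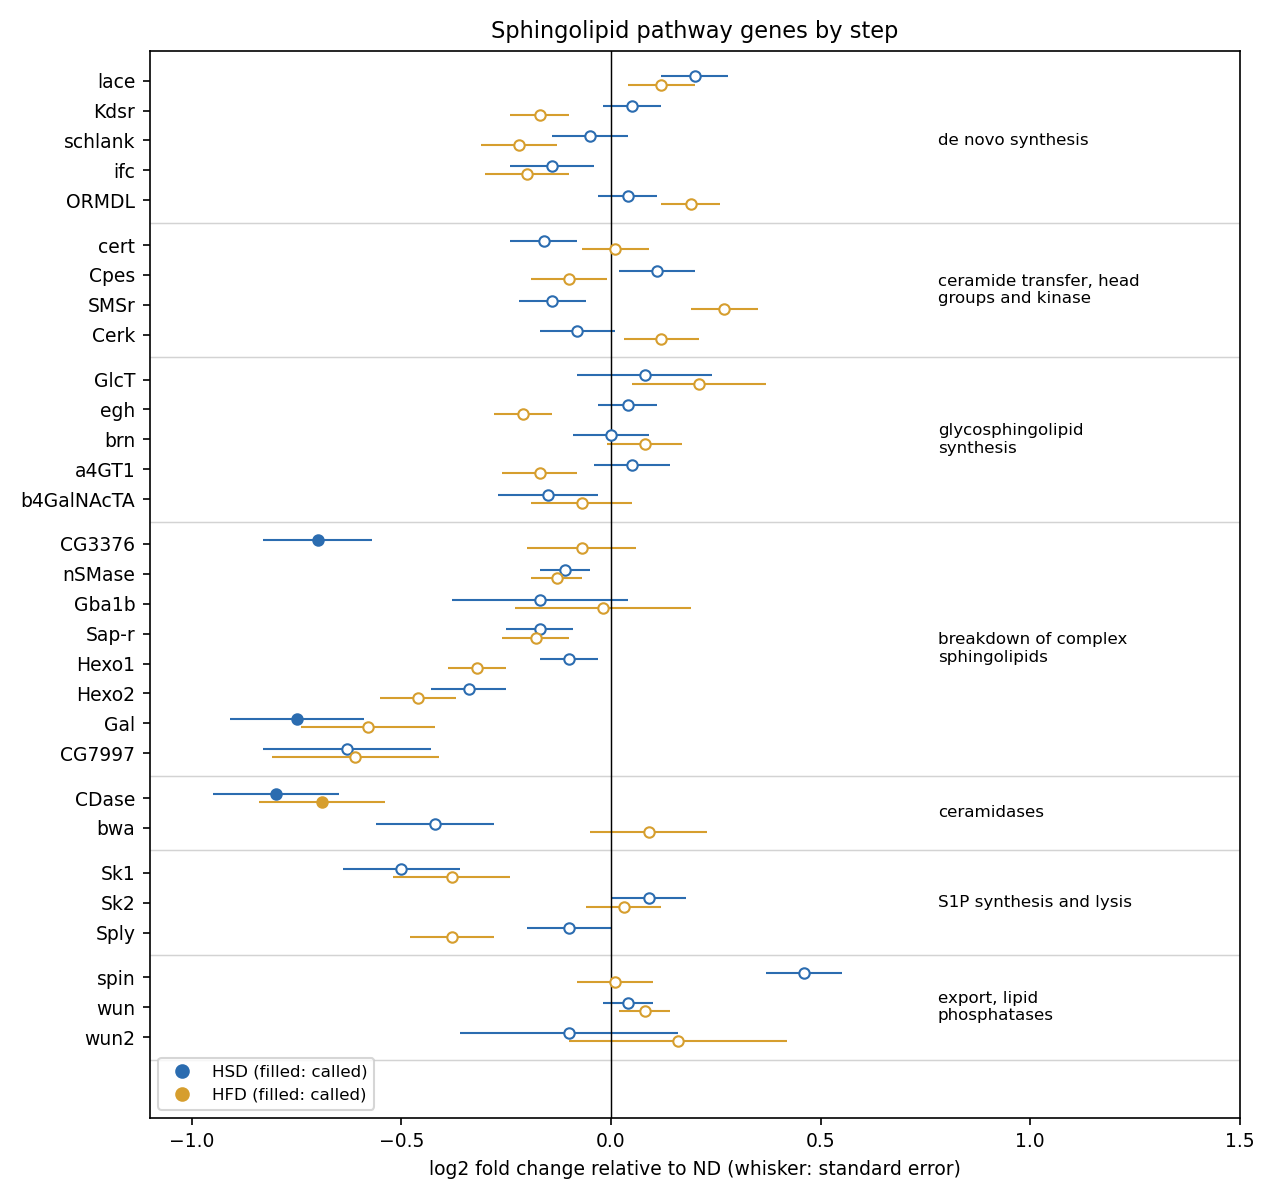
log2FC relative to ND (horizontal axis, whiskers are standard errors) of the 8 tested core genes and 22 further pathway genes, grouped by step, on HSD (blue) and HFD (yellow), filled where called. The filled points are CDase on both diets and CG3376 and Gal on HSD, all to the left of 0, and the 8 genes of breakdown lie to the left of 0 on both diets, on HFD 6 of 8 with RPKM as deposited.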

How the data were processed

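The 9 genes and all lists were chosen with earlier results of these data known. The authors extracted RNA from pooled hearts (15 per library by the labels, 30 by the paper), with 3 days of HFD by the sample labels and 10 by the series text,, made stranded ribosome-depleted libraries, used Sickle for trimming, Subread 1.6.1 for alignment to dm3 and featureCounts 1.6.1 for counting (versions from the submitters' processing notes), and updated identifiers to dm6. They deposited 1 table of RPKM per gene and library, without scaling between libraries. Decimal commas in 28.4% of its cells were read as points. Of 13915 rows above 0, 95.1% gave whole reads (within 0.02) in all libraries once multiplied by the BDGP6 exon length and the library total. Of these 13915 rows, 2316 lay in 9 stretches whose labels were realigned. In those stretches 95.5% of rows gave whole reads after realigning, against 14.9% as listed. The whole reads served for depth and for the limma-voom alternative. The unit made a count test unfit as the main test.

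RPKM were scaled by the median of ratios. Genes averaging 0.5 RPKM or more were fitted with limma 3.58.1 in R 4.3.3 on log2(scaled RPKM + 0.5), 1 term per diet, all 9 libraries, 6 residual degrees of freedom and a trended prior (median 2.9 degrees of freedom), with Benjamini-Hochberg adjustment over the 8365 genes tested. The procedure was tested on simulated data. Tables and figures used matplotlib 3.10.9, scipy 1.17.1, pandas 2.3.3 and numpy 2.4.6 under Python 3.11.15. Coordinates and overlaps are from the BDGP6 annotation. p-values measure the spread between pools of hearts. By the paper's methods a tube of each diet was taken on each of 3 dates, and no source ties the dates to the letters A, B and C.

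Named with values are the 9 genes, the other pathway genes called in any comparison or among the 2 with the largest absolute log2FC in each, and the 3 genes most correlated with a called gene of the 9. SMSr, Hexo2 and the genes listed at 0 were named after their values were seen. Alternatives were no scaling of the RPKM, quantile normalization, no filter, pseudocounts of 0.1 and 1, a mean of at least 2 RPKM, no trend in the prior, the 6 libraries of the 2 diets only, a replicate block, limma-voom, labels as listed, other thresholds and leaving out each library.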

Additional observations from a re-analysis of the deposited data

Results flagged for a closer look

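In 4 genes the response to HSD and to HFD differed by the test of HSD versus HFD itself (limma, adjusted p under 0.05), although 3 of them did not reach the fold change threshold. They are 4 of the 8 and 22 tested genes of the pathway, and 9.42% of all genes tested had such a p, so the count itself is no result about these genes. For bwa the log2FC was -0.51 (adjusted p = 0.048), with all HSD libraries below all HFD libraries. For CG3376 it was -0.63 (adjusted p = 0.017), with the same separation. For spin it was 0.45 (adjusted p = 0.016), the HSD libraries being the 3 highest of the 9. SMSr, which encodes an enzyme of ceramide phosphoethanolamine synthesis, had -0.41 (adjusted p = 0.016), at 6.15, 5.51 and 5.89 scaled RPKM on HSD and 7.99, 7.78 and 7.99 on HFD, with ND at 5.70, 6.89 and 6.94. Leaving out a library gave adjusted p of 0.018 to 0.12 for bwa, 0.0073 to 0.07 for SMSr, 0.012 to 0.062 for spin and 0.0026 to 0.065 for CG3376. The difference of bwa was thus the least stable of the 4.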

How the results depend on the processing

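The HSD call of CDase was kept under every alternative that tested it other than leaving out libraries, with log2FC of -1.06 to -0.66. With a mean of at least 2 RPKM, CDase was not tested and the genes called among the 8 were 0 on both diets. The HFD call of CDase was lost, leaving 0 of the 8 called, with RPKM as deposited (log2FC -0.61, adjusted p = 0.058), pseudocounts of 0.1 (-0.83, 0.054) and 1 (-0.58, 0.041), no filter (-0.69, 0.091) and the replicate block (-0.69, 0.057). Whether the letters A, B and C mark the same collection dates is not given in the sources used here. Correlations of same-letter deviations ran from -0.25 to 0.267, above 0 for every pair of A and of C but not of B. Those between different letters ran from -0.321 to 0.36. The ranges overlap and do not settle whether the letters mark pairs. The main fit had no term for the letter, and the replicate block was an alternative. The block gave 282, 161 and 376 genes called over all genes in the comparisons of HSD with ND, HFD with ND and HSD with HFD, against 276, 160 and 364 without it. With no fold change threshold these were 559, 247 and 788, and bwa made 1 of the 8 in HSD versus HFD. For HFD the count was 81 with no filter and 300 with an unadjusted p, and its split of 39 higher and 121 lower became 87 and 96 with RPKM as deposited, where the median log2FC of all genes was 0.119. Leaving out a library gave 107 to 297, 45 to 167 and 237 to 437 genes, and 0 to 1, 0 to 1 and 0 of the 8. Of calls outside the 8, that of Gal on HSD was lost with no filter (adjusted p = 0.067) and with 6 libraries (0.057), which called it on HFD (0.03), and that of CG3376 in HSD versus HFD with 6 libraries (0.053).

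Signs turned for small differences. With labels as listed lace had log2FC of -0.15, -0.07 and -0.08 in the 3 comparisons and schlank 0.16 on HFD and -0.22 in HSD versus HFD. With RPKM as deposited CG3376 had 0.04 on HFD, and ifc and Sk2 -0.01 in HSD versus HFD. Leaving out a library gave -0.14 to 0.03 for schlank on HSD, and on HFD -0.07 to 0.17 for bwa, -0.02 to 0.11 for Sk2, -0.21 to 0.08 for CG3376 and -0.05 to 0.04 for spin. In HSD versus HFD it gave -0.02 to 0.15 for lace, -0.01 to 0.16 for ifc, -0.20 to 0.07 for CDase, -0.02 to 0.11 for Sk2, -0.28 to 0.05 for Gal and -0.17 to 0.09 for CG7997. The cause of these changes was not tested. Sk1 and CDase had the fewest reads of the 8, which was not compared with their spread.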
